A study of Homo sapiens with 9 samples.

Results

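TXNIP, the alpha-arrestins ARRDC1, ARRDC2, ARRDC3 and ARRDC4, and the transcription factors MLX and MLXIP were followed in AC16 cells given CDDO-Me. These 7 genes were taken by symbol from a table of 58299 genes. TXNIP was chosen by its measured level, which was lower at 72 h than at 24 h of CDDO-Me, so its values are described here without a test. All 7 genes passed the filter on low counts, which kept 14965 genes, and the other 6 were tested.

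AC16 is an established, dividing human cell line obtained by fusing adult ventricular cells with SV40-transformed fibroblasts. CDDO-Me, also called bardoxolone methyl, is a triterpenoid made by synthesis; it modifies KEAP1 and so keeps NRF2, the activator of antioxidant genes, from being degraded. Control cells were kept in 0.1% DMSO for 72 h, and treated cells received CDDO-Me at 100 nM over 24 h or 72 h, with 3 libraries of polyadenylated RNA in each group. All groups grew in medium with 25 mM glucose, 1 mM pyruvate and 10% serum, at passages 3 to 10. The only vehicle group was the one of 72 h, so for the 24 h group the treatment and the shorter time cannot be told apart.

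Alpha-arrestins are adaptor proteins that bring ubiquitin ligases of the NEDD4 family to membrane proteins, which are then taken into the cell. TXNIP, the best known of them, binds thioredoxin and promotes the uptake of glucose transporters from the cell surface. When glucose enters the cell, MondoA (the product of MLXIP) moves to the nucleus together with its partner MLX and switches on TXNIP and ARRDC4 through paired E-box sequences, which makes both genes markers of glucose supply.

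Libraries held 16898977 to 27910031 counts. Library 3 of the 24 h group differed from the other 24 h libraries by a root mean square of 0.552 and 0.569 on the log2 scale, against 0.331 between those libraries. DMSO library 1 differed from the other DMSO libraries by 0.433 and 0.463, against 0.358 between them, and the 72 h libraries differed from each other by 0.324 to 0.337. Of 10 cardiomyocyte markers, 9 lay below the filter, with MYH6, MYH7, RYR2 and NKX2-5 at 0 counts in every library. GATA4, the 1 tested, had means of 25.3 CPM (read counts scaled to library size) in DMSO and 21.3 CPM at both CDDO-Me times. It was not called against DMSO (-0.25 on the log2 scale at both times, adjusted p = 0.370 and 0.248 by edgeR's quasi-likelihood test). All 7 fibroblast markers were tested and summed to 11914 to 16677 CPM, most of it COL1A1 (group means of 9069 to 9599 CPM). Of 5 smooth muscle markers tested, ACTA2 and MYOCD were lower than in DMSO at 24 h (-1.24 and -1.85 on the log2 scale, adjusted p = 0.0116 and 0.000313 by edgeR's quasi-likelihood test) and at 72 h (-0.98 and -2.63), and CNN1 was higher at 72 h (0.37). Without DMSO library 1 the 72 h calls of ACTA2 (-0.70, adjusted p = 0.0963), CNN1 (0.42, adjusted p = 0.05003) and PDGFRA, a fibroblast marker (-0.82, adjusted p = 0.0666), were lost. With all libraries, PDGFRA and TEK, among 3 tested endothelial markers, were lower at 72 h (-0.76 and -0.83). The smooth muscle list summed to 263.4 to 433.7 CPM in DMSO (285.2 at most without library 1), 180.4 to 269.8 CPM at 24 h (195.0 at most without library 3) and 213.3 to 231.7 CPM at 72 h. The part of these markers in the values of the 7 genes was not tested.

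The sequences just before the start sites of TXNIP and ARRDC4 are shown because MondoA and MLX are known to act there. TXNIP was chosen for its difference between the CDDO-Me times, and ARRDC4 gave the widest such difference of the 6 tested genes. Each is the 250 bases before the first RefSeq start site (GRCh38.p14), chr1:145996580-145996829 on the minus strand for TXNIP and chr15:97960453-97960702 on the plus strand for ARRDC4. Capitals mark the E-box hexamer CACGNG on either strand.
TXNIP: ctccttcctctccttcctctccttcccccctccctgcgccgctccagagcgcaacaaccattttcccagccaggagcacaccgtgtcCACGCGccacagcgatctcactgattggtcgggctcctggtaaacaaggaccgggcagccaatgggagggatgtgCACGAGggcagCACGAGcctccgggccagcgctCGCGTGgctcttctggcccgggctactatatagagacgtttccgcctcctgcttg
ARRDC4: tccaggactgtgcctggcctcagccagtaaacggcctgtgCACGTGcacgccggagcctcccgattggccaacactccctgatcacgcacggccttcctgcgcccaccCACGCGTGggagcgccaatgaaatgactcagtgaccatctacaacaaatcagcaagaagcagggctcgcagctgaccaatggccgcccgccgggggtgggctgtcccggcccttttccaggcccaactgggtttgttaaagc

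In the TXNIP window the hexamer began 163, 88, 77 and 55 bases before the start. The hexamers at 88 and 77 lie on the same strand with 5 bases between them, the layout of a carbohydrate response element, and the site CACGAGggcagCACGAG covers chr1:145996651-145996667 on the minus strand. In the ARRDC4 window the hexamer began 210, 142 and 140 bases before the start. The first of these is the palindrome CACGTG, the other pair overlap, and no pair had the spacing of 5 bases. Single hexamers are common, with CACGNG in 26.7% and CACGTG in 6.34% of the 35116 windows of this length searched on both strands. The spaced pair was in 23 windows (0.0655%).

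Other motifs were searched on both strands as well. CCAAT, the box bound by NF-Y, stood 140 and 105 bases before the TXNIP start and 187, 128 and 67 bases before that of ARRDC4, and was in 32.0% of windows. TGTTTAC, a FOXO-type site (2.98% of windows), stood 124 bases before the TXNIP start. TGACNNNGC, the core of the antioxidant response element through which NRF2 acts (10.9% of windows), matched in the ARRDC2 window at 68 bases and in no other first window of the 7 genes. A match is a run of letters and no measurement of binding, and a missing match says nothing about the factor. Further matches were CACGTG at 50 bases before the MLX start, 3 CACGNG hexamers before ARRDC2, and CCAAT before ARRDC1, ARRDC3, MLX and MLXIP.

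**Figure D1:**
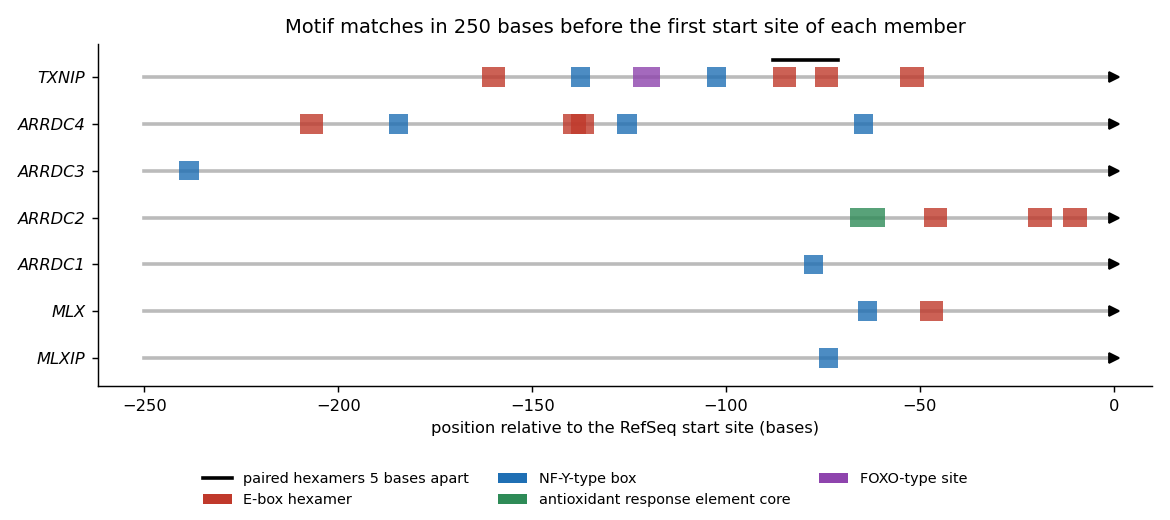
Motif matches in the 250 bases before the first RefSeq start site of each of the 7 genes (x axis, bases relative to the start; 1 line per gene; colored blocks are matches on either strand). TXNIP has 4 E-box hexamers, 1 spaced pair among them marked by a black bar, ARRDC4 has 3 hexamers with no such pair, and the NF-Y-type box is CCAAT.

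TXNIP (ENSG00000265972, chr1:145992435-145996600, minus strand) stood at 56.8, 88.4 and 109.3 CPM in DMSO. It stood at 106.0, 121.3 and 108.9 CPM after 24 h of CDDO-Me and at 50.9, 52.3 and 45.0 CPM after 72 h. All 72 h libraries lay below every library of the other groups, while DMSO and 24 h overlapped through DMSO library 3. The means were 84.8 ± 26.5, 112.0 ± 8.12 and 49.4 ± 3.89 CPM (SD, n = 3 each). The spread in DMSO was therefore several times that of either treated group.

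The log2 fold change of TXNIP was -1.18 ± 0.19 (SE) from 24 h to 72 h, a level 2.27-fold lower, which is the value it was chosen for. Against DMSO it was 0.40 ± 0.19 at 24 h and -0.78 ± 0.19 at 72 h. Both of these share the DMSO libraries. Leaving out DMSO library 1, the lowest, gave 0.18 and -1.0, and leaving out DMSO library 3, the highest, gave 0.63 and -0.55. The difference between the CDDO-Me times ran from -1.22 to -1.11 whichever library was left out.

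ARRDC4 (ENSG00000140450, chr15:97960698-97973838, plus strand), the arrestin most like TXNIP in its known control by MondoA, had the lowest level per length of the 7 genes in every group, with 46 to 206 counts per library. It stood at 3.00, 3.85 and 4.79 CPM in DMSO, at 5.71, 5.17 and 7.53 CPM at 24 h, and at 2.23, 2.55 and 3.26 CPM at 72 h. The 24 h libraries were the highest 3 of the 9, and DMSO and 72 h overlapped. ARRDC4 fell from 24 h to 72 h by 1.20 ± 0.24 on the log2 scale, a level 2.30-fold lower (95% interval -1.71 to -0.70; edgeR's quasi-likelihood test, adjusted p = 0.0242).

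Against DMSO, ARRDC4 did not pass the test at either time. Its log2 fold change was 0.66 ± 0.23 at 24 h (adjusted p = 0.191) with no overlap of the groups, and -0.54 ± 0.24 at 72 h (adjusted p = 0.245) with overlap. The call between 24 h and 72 h was sensitive to single libraries. It was lost without DMSO library 2 (adjusted p = 0.0556), without 24 h library 1 (0.0563) or 2 (0.0534), and without 72 h library 1 (0.185), 2 (0.149) or 3 (0.0734). It held without 24 h library 3 (adjusted p = 0.00932, -1.02) and with that library and DMSO library 1 both left out (adjusted p = 0.000568). With both left out, ARRDC4 was also below DMSO at 72 h (-0.70, adjusted p = 0.0199).

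ARRDC3 (ENSG00000113369, chr5:91368724-91383359, minus strand), known as an adaptor for the beta2-adrenergic receptor and integrin beta4, had higher means in CDDO-Me at both times. It stood at 7.75, 11.5 and 14.8 CPM in DMSO, at 13.9, 18.6 and 13.4 CPM at 24 h, and at 17.4, 18.2 and 15.1 CPM at 72 h. The 72 h libraries all lay above DMSO, the closest pair being 15.1 and 14.8 CPM, and the 24 h libraries overlapped both groups. The log2 fold changes of 0.43 ± 0.20 at 24 h (adjusted p = 0.390) and 0.57 ± 0.20 at 72 h (adjusted p = 0.122) did not pass the test, nor did the 0.14 ± 0.20 between the times (0.810). Without DMSO library 3 the value at 72 h was 0.81 and passed (adjusted p = 0.0331). Its antisense neighbor ARRDC3-AS1, which shares 145 exonic bases, had 3 to 16 counts per library.

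ARRDC1 (ENSG00000197070, chr9:137605654-137615360, plus strand) recruits ESCRT proteins to the plasma membrane and gives rise to small vesicles that bud from it. It stood at 25.6, 21.5 and 19.3 CPM in DMSO, at 29.5, 26.1 and 20.1 CPM at 24 h, and at 21.7, 23.2 and 23.5 CPM at 72 h. The 3 groups overlapped, and the log2 fold changes were 0.18 ± 0.14 at 24 h, 0.04 ± 0.14 at 72 h and -0.14 ± 0.14 between them (adjusted p = 0.656, 0.915 and 0.714). With 24 h library 3 and DMSO library 1 left out, ARRDC1 was 0.44 above DMSO at 24 h (adjusted p = 0.00285) and fell by 0.28 from 24 h to 72 h (adjusted p = 0.0297). ARRDC1-AS1, which runs on the opposite strand over 29 of its exonic bases, stood at 21.6 ± 2.94, 24.5 ± 2.81 and 24.5 ± 1.62 CPM. The libraries do not keep the strand, so reads of those shared bases cannot be told apart.

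ARRDC2 (ENSG00000105643, chr19:18001132-18014102, plus strand), another member of the family, stood at 11.1, 8.80 and 9.38 CPM in DMSO, at 9.43, 10.4 and 13.2 CPM at 24 h, and at 10.7, 8.76 and 8.65 CPM at 72 h. The groups overlapped in every comparison. Its log2 fold changes were 0.18 ± 0.16, -0.06 ± 0.16 and -0.24 ± 0.16 for 24 h against DMSO, 72 h against DMSO and 72 h against 24 h (adjusted p = 0.712, 0.895 and 0.569). The value at 72 h took the opposite sign without DMSO library 1 (0.05).

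**Figure D2:**
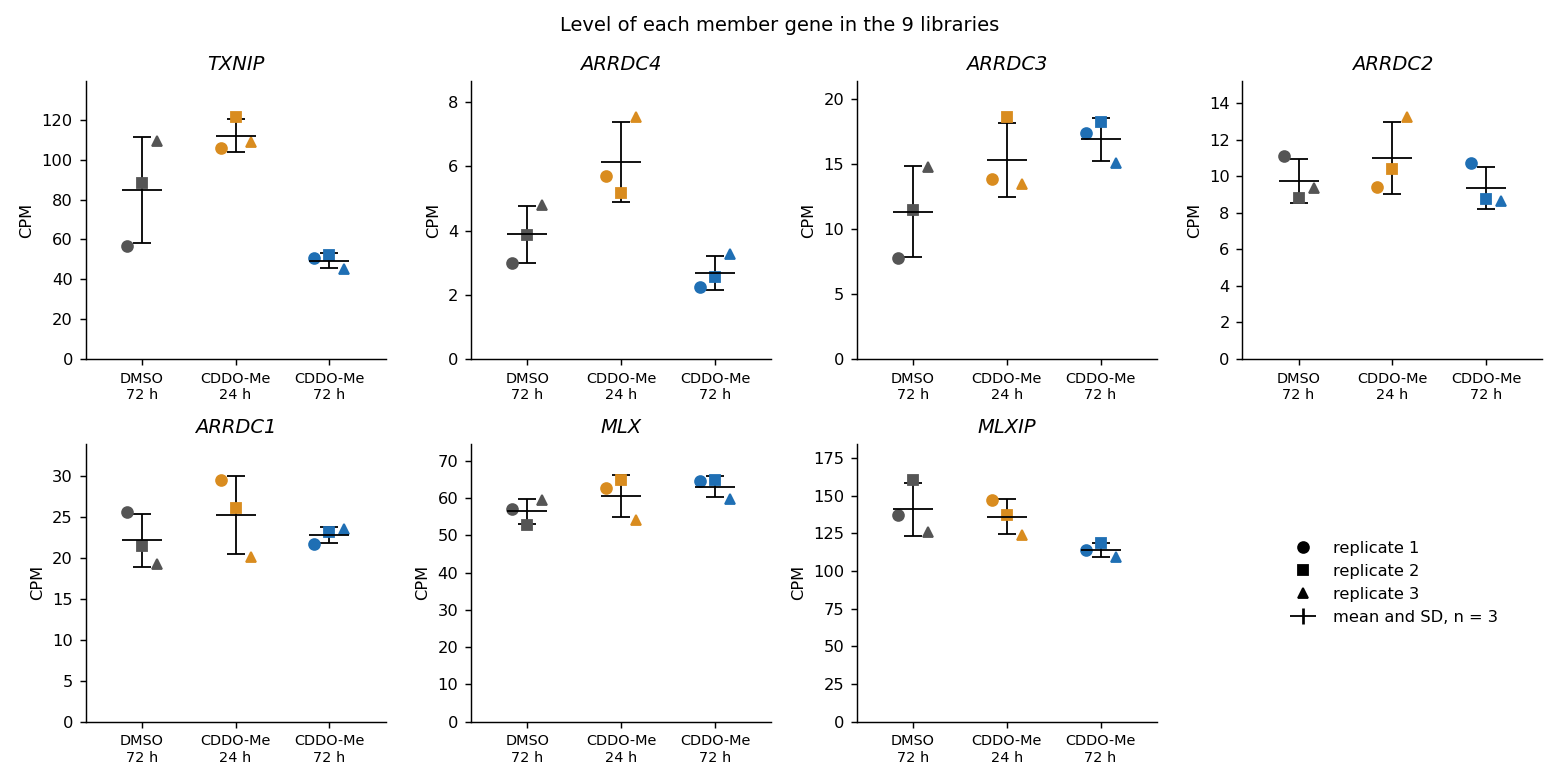
CPM of each of the 7 genes (y axes, linear from 0) in DMSO 72 h, CDDO-Me 24 h and CDDO-Me 72 h; points are libraries, marked by replicate number, and bars are the mean and SD of 3. TXNIP at 72 h sits at 45.0 to 52.3 CPM, below all other libraries, and ARRDC4 at 24 h sits at 5.17 to 7.53 CPM, above all other libraries.

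MLXIP (ENSG00000175727, chr12:122078722-122147347, plus strand) encodes MondoA, which senses glucose 6-phosphate. It stood at 137.0, 160.5 and 126.2 CPM in DMSO, at 147.3, 137.6 and 123.8 CPM at 24 h, and at 113.8, 118.5 and 109.2 CPM at 72 h. The 72 h libraries lay below all others. The log2 fold change against DMSO was -0.05 ± 0.09 at 24 h (adjusted p = 0.872) and -0.31 ± 0.09 at 72 h (adjusted p = 0.0689), and the difference between the times was -0.26 ± 0.09 (0.249).

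No comparison of MLXIP passed the test in the fit of all 9 libraries, but the value at 72 h stood near the threshold. It passed without DMSO library 3 (-0.38, adjusted p = 0.0376), without 24 h library 3 (-0.31, adjusted p = 0.0126) and with 24 h library 3 and DMSO library 1 both left out (-0.33, adjusted p = 0.00132). Without 24 h library 3 the difference between the times also passed (-0.32, adjusted p = 0.0230). At 24 h the sign turned without DMSO library 2 (0.05) or without 24 h library 3 (0.01).

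MLX (ENSG00000108788, chr17:42567068-42573239, plus strand), the partner with which MondoA binds DNA, stood at 57.1, 52.8 and 59.4 CPM in DMSO, at 62.6, 64.8 and 54.1 CPM at 24 h, and at 64.5, 64.7 and 59.8 CPM at 72 h. The 72 h libraries lay above DMSO by a margin of less than 1 CPM at the closest pair. The log2 fold changes were 0.10 ± 0.09, 0.16 ± 0.09 and 0.06 ± 0.09 (adjusted p = 0.714, 0.370 and 0.824). MLX shares 770 exonic bases with PSMC3IP on the opposite strand, and PSMC3IP had 351 to 590 counts per library and log2 fold changes of 0.01, 0.04 and 0.02. The sign of the last MLX value turned without 24 h library 3 (-0.01).

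Of the 6 tested genes, 0 passed at 24 h against DMSO, where 2.15% of all genes tested passed. At 72 h against DMSO 0 passed, against 6.02% of all genes, and at 72 h against 24 h 1 passed, ARRDC4, against 1.02%, with 0.568% of all genes passing as lower. At an unadjusted p under 0.05 the counts were 2, 3 and 2 of the 6, beside 12.8%, 18.6% and 13.2% of all genes. DESeq2 called 0, 1 and 1 of the 6, beside 3.65%, 8.05% and 2.63% of all genes, and limma-voom called 0, 0 and 1, beside 2.01%, 5.27% and 0.768%. The median log2 fold change of the 6 was 0.18, -0.01 and -0.19, beside 0.01, 0.00 and -0.01 over all genes tested. Among the 6, groups did not overlap for ARRDC4 at 24 h against DMSO and for ARRDC3, MLX and MLXIP at 72 h against DMSO. Between the times they did not overlap for ARRDC4 and MLXIP. Groups did not overlap for 13.5%, 30.7% and 21% of all genes in the 3 comparisons.

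**Figure D3:**
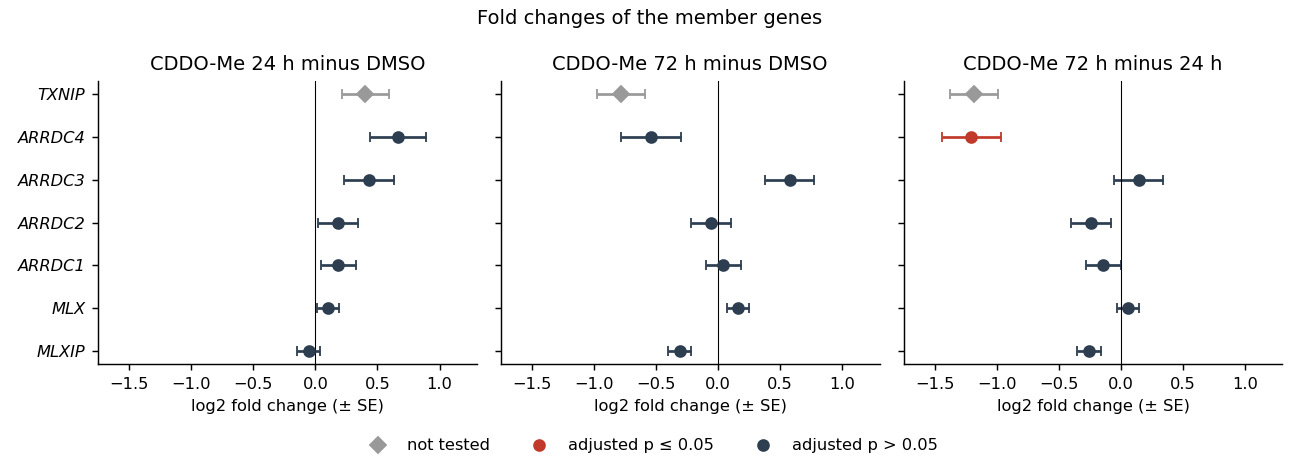
Log2 fold change with its SE (x axes) of each of the 7 genes in the 3 comparisons, the first and second of which share the DMSO libraries. ARRDC4 at -1.20 between 24 h and 72 h is the only red point (adjusted p of at most 0.05), and TXNIP is shown in gray because it was not tested.

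Levels were also compared per exonic length, as RPKM (CPM per 1000 bases of exon). This length counts all annotated exons of a gene, not those of a single transcript, so the order depends on the annotation. By this measure TXNIP was the most abundant of the 7 genes in DMSO at 23.4 ± 7.30 RPKM. MLX at 13.2 ± 0.785, MLXIP at 10.2 ± 1.26, ARRDC1 at 5.80 ± 0.842, ARRDC3 at 2.29 ± 0.710, ARRDC2 at 2.11 ± 0.259 and ARRDC4 at 0.953 ± 0.220 RPKM followed. ARRDC3 and ARRDC2 overlapped, and all other neighbors in this order were apart. The order of the means was the same at 24 h, with TXNIP at 30.9 ± 2.24 RPKM and ARRDC4 at 1.51 ± 0.304 RPKM. At 72 h MLX had the highest mean, 14.8 ± 0.656 RPKM, and overlapped TXNIP at 13.6 ± 1.07 RPKM. ARRDC3 (3.42 ± 0.331 RPKM) and ARRDC2 (2.02 ± 0.250 RPKM) no longer overlapped there. MLXIPL, which encodes ChREBP, the counterpart of MondoA in liver and fat, had at most 1 count in any library, so MondoA was the abundant member of that pair at the RNA level.

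Thioredoxin (TXN), which TXNIP binds and inhibits, was read together with TXNIP. TXN stood at 227.3, 205.4 and 243.1 CPM in DMSO, at 268.3, 305.9 and 398.6 CPM at 24 h, and at 436.3, 446.6 and 442.8 CPM at 72 h. The 3 groups did not overlap. TXN rose by 0.53 ± 0.12 at 24 h (edgeR's quasi-likelihood test, adjusted p = 0.0327) and by 0.97 ± 0.12 at 72 h (adjusted p = 0.000213) on the log2 scale, and the call at 72 h held whichever library was left out. The call at 24 h was lost without any of DMSO libraries 1 to 3 (adjusted p = 0.0829, 0.193 and 0.0608), 24 h library 2 (0.0755) or 72 h libraries 1 to 3 (0.0645, 0.0670 and 0.0688). Without 24 h library 3, the highest at that time, the 24 h value was 0.35 and still passed (adjusted p = 0.00603).

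The per-length ratio of TXN over TXNIP was 12.7, 7.38 and 7.06 in DMSO, 8.04, 8.01 and 11.6 at 24 h, and 27.2, 27.1 and 31.3 at 72 h. The 72 h libraries all lay above the others, with means of 9.05 ± 3.18, 9.22 ± 2.07 and 28.5 ± 2.37. This ratio holds TXNIP, which was chosen for its level, and was not tested. It compares RNA levels and not proteins.

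The glucose transporters GLUT1 (SLC2A1), a known cargo of TXNIP, and GLUT3 (SLC2A3) were also in the list of TXNIP partners. SLC2A1 stood at 214.1, 221.7 and 222.3 CPM in DMSO, at 319.9, 318.3 and 264.2 CPM at 24 h, and at 225.9, 230.3 and 230.1 CPM at 72 h. It was highest at 24 h in all 3 libraries, rose there by 0.46 ± 0.08 (adjusted p = 0.00740) and fell by 0.39 ± 0.08 from 24 h to 72 h (adjusted p = 0.0306). The fall was lost without 24 h library 1 (0.116) or 2 (0.169), 72 h library 1 (0.196), 2 (0.161) or 3 (0.186), or DMSO library 2 (0.0603), all as adjusted p. SLC2A3 rose by 0.41 ± 0.09 at 24 h (adjusted p = 0.0225) and by 0.37 ± 0.09 at 72 h (adjusted p = 0.0217), from a mean of 69.5 CPM to 92.3 and 89.7 CPM. The first SLC2A3 call was lost without DMSO library 1 or 2 or 72 h library 3 (adjusted p = 0.0648, 0.0993 and 0.0544). The second was lost without DMSO library 1 or 2 (0.0693 and 0.0769) or 72 h library 1, 2 or 3 (0.0568, 0.121 and 0.105). GLUT4 (SLC2A4) and NLRP3, the inflammasome sensor that TXNIP binds, had at most 16 and 13 counts and were not tested.

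**Figure D4:**
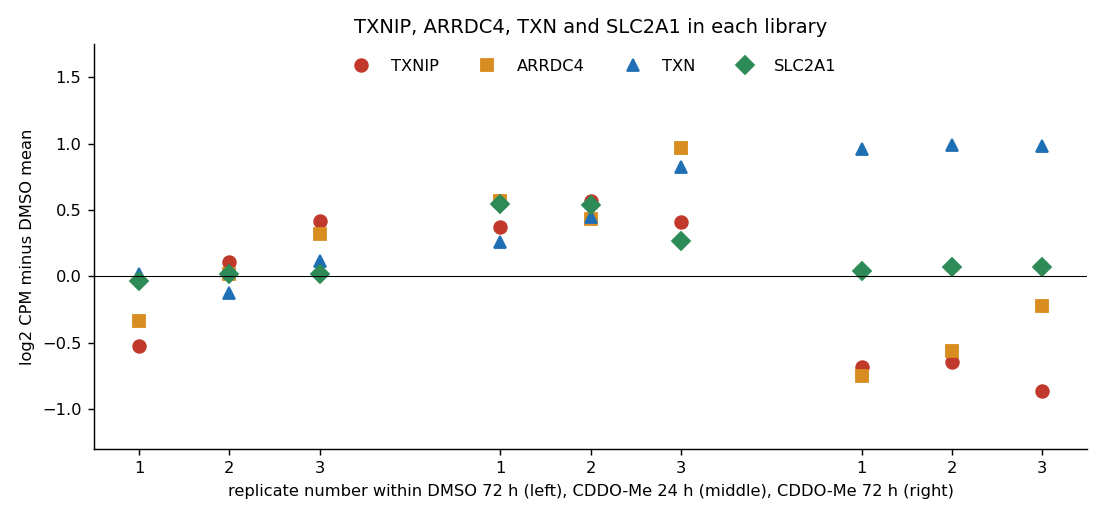
Log2 CPM minus the DMSO mean (y axis) of TXNIP, ARRDC4, TXN and SLC2A1 in each of the 9 libraries (x axis, replicate number within each group). At 72 h TXNIP and ARRDC4 lie below 0 while TXN lies near 1 in all 3 libraries, and SLC2A1 is highest at 24 h.

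The 7 lists of genes around these proteins held 51 genes, of which 42 were tested. At 24 h against DMSO 3 were higher and 2 lower (11.9% of the 42), beside 0.969% of all genes higher and 1.18% lower. At 72 h against DMSO 2 were higher and 6 lower (19%), beside 2.89% and 3.13% of all genes. At 72 h against 24 h 1 was higher and 3 lower (9.52%), beside 0.448% and 0.568%. The lists were put together with earlier results of these data known, so the shares are a description. Their medians were -0.01, -0.07 and -0.04 on the log2 scale, beside 0.01, 0.00 and -0.01 over all genes.

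These counts moved with single libraries. The 5 calls at 24 h became 3 without DMSO library 2 or 72 h library 3 and 9 without 24 h library 3. The 8 calls at 72 h became 2 without DMSO library 2, 2 without 72 h library 1 or 2, and 1 without 72 h library 3. The 4 calls between the times became 2 without DMSO library 2 or 24 h library 1, 0 without 24 h library 2 or any 72 h library, and 13 without 24 h library 3. With 24 h library 3 and DMSO library 1 both left out, the counts were 18, 17 and 22 of the listed genes, beside 22.8%, 17.9% and 22.8% of all genes. Without 24 h library 3 alone the shares of all genes were 10.8%, 12.9% and 12%.

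Among the ubiquitin ligases and vesicle proteins that alpha-arrestins recruit, 8 of 8 were tested. SMURF2, a ligase of the NEDD4 family, fell by 0.47 ± 0.08 at 24 h (148.5 to 107.4 CPM, adjusted p = 0.00584) and by 0.33 ± 0.08 at 72 h (adjusted p = 0.0239). NEDD4L, a ligase known for removing sodium channels from the membrane, fell by 0.40 ± 0.08 at 72 h against DMSO, from 108.8 ± 5.40 to 82.3 ± 2.29 CPM (adjusted p = 0.00716). NEDD4L also fell by 0.39 ± 0.08 from 24 h to 72 h (adjusted p = 0.0306), with its 72 h libraries at 79.7 to 83.8 CPM below all others. The SMURF2 call at 24 h held whichever library was left out. At 72 h it was lost without DMSO library 1 or 2 or any 72 h library (adjusted p up to 0.150). NEDD4L lost its call against DMSO without 72 h library 3 (0.0577), and its call between the times without DMSO library 2, 24 h library 2 or any 72 h library (up to 0.219).

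In the network of MYC, MAX and MLX, whose members pair with each other on E-boxes, 8 of 10 genes were tested. MNT, a repressor that binds MAX and MLX, fell by 0.35 ± 0.09 at 72 h against DMSO, from 36.5 ± 1.70 to 28.6 ± 0.654 CPM (adjusted p = 0.0338). No other gene of the list passed in any comparison. At an unadjusted p under 0.05, 4, 3 and 2 genes lay in the 3 comparisons, beside 12.8%, 18.6% and 13.2% of all genes. DESeq2 called 2, 2 and 1, beside 3.65%, 8.05% and 2.63% of all genes. The MNT call was lost without DMSO library 1 or 2 or any 72 h library (adjusted p up to 0.162).

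All 4 other genes listed as glucose-responsive MondoA targets were tested. KLF10, a transcriptional repressor, fell by 0.61 ± 0.17 at 72 h against DMSO, from 26.7 to 17.4 CPM (adjusted p = 0.0466), and LDHA, which makes lactate from pyruvate, fell by 0.41 ± 0.10, from 996.7 to 752.4 CPM (adjusted p = 0.0300). KLF10 at 24 h was spread from 18.8 CPM in library 2 to 33.9 CPM in library 3, so that its 24 h group covered the DMSO values. KLF10 lost its call without 24 h library 1 or any DMSO or 72 h library (adjusted p up to 0.186), and LDHA without DMSO library 2 or 3 or any 72 h library (up to 0.133). HK2 (-0.14, adjusted p = 0.555) and PFKFB3 (0.01, adjusted p = 0.954) were not called at 72 h against DMSO by edgeR's quasi-likelihood test. Of all genes, 3.13% passed as lower there. PFKFB3 at 24 h was 0.28 above DMSO and not called (adjusted p = 0.0706). The median of the list at 72 h was -0.27 on the log2 scale, beside 0.00 over all genes.

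Of the proteins known as cargo of the ARRDC arrestins, 6 of 7 were tested. NOTCH1, a receptor on this list, fell by 0.42 ± 0.12 at 72 h against DMSO, from 86.8 to 64.9 CPM (adjusted p = 0.0485). That call was lost without DMSO library 1 or 2, 24 h library 2 or any 72 h library (adjusted p up to 0.212). No other cargo gene passed in any comparison. At an unadjusted p under 0.05 there were 1, 3 and 3 genes, beside 12.8%, 18.6% and 13.2% of all genes. DESeq2 called 0, 2 and 1, beside 3.65%, 8.05% and 2.63% of all genes.

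TXNIP is also known to respond to glucocorticoids, and 6 of 7 genes of that response were tested. SGK1, a kinase, stood at 45.8 to 63.6 CPM in DMSO, 24.7 to 29.1 CPM at 24 h and 41.7 to 43.5 CPM at 72 h. It fell by 1.04 ± 0.12 at 24 h (adjusted p = 0.000162), a call that held whichever library was left out, and rose by 0.65 ± 0.12 from 24 h to 72 h (adjusted p = 0.0140). The clock gene PER1 fell by 0.55 ± 0.10 from 24 h to 72 h, with means of 28.8 and 19.6 CPM (adjusted p = 0.0192). The SGK1 rise was lost without 24 h library 2 or any 72 h library (adjusted p up to 0.0957), and the PER1 fall without 24 h library 1 or 2 or any 72 h library (up to 0.150). The list did not move in 1 direction. At 24 h against DMSO, PER1 was 0.39, TSC22D3 0.41, KLF9 0.07, FKBP5 0.03 and ERRFI1 -0.20, none of them called. Of all genes, 1.18% passed as lower at 24 h, and 0.448% as higher and 0.568% as lower from 24 h to 72 h. The median of the 6 genes from 24 h to 72 h was -0.15, beside -0.01 over all genes.

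Of 5 other arrestins, only the beta-arrestins ARRB1 and ARRB2 were abundant enough to test. ARRB2 stood at 59.1, 64.4 and 59.7 CPM and ARRB1 at 11.1, 11.1 and 12.1 CPM as group means. edgeR's quasi-likelihood test called 0 of them in the 3 comparisons, beside 2.15%, 6.02% and 1.02% of all genes. At an unadjusted p under 0.05 there were 0, beside 12.8%, 18.6% and 13.2% of all genes. DESeq2 called 0, beside 3.65%, 8.05% and 2.63%. ARRDC5 and the retinal arrestins SAG and ARR3 had at most 13 counts.

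**Figure D5:**
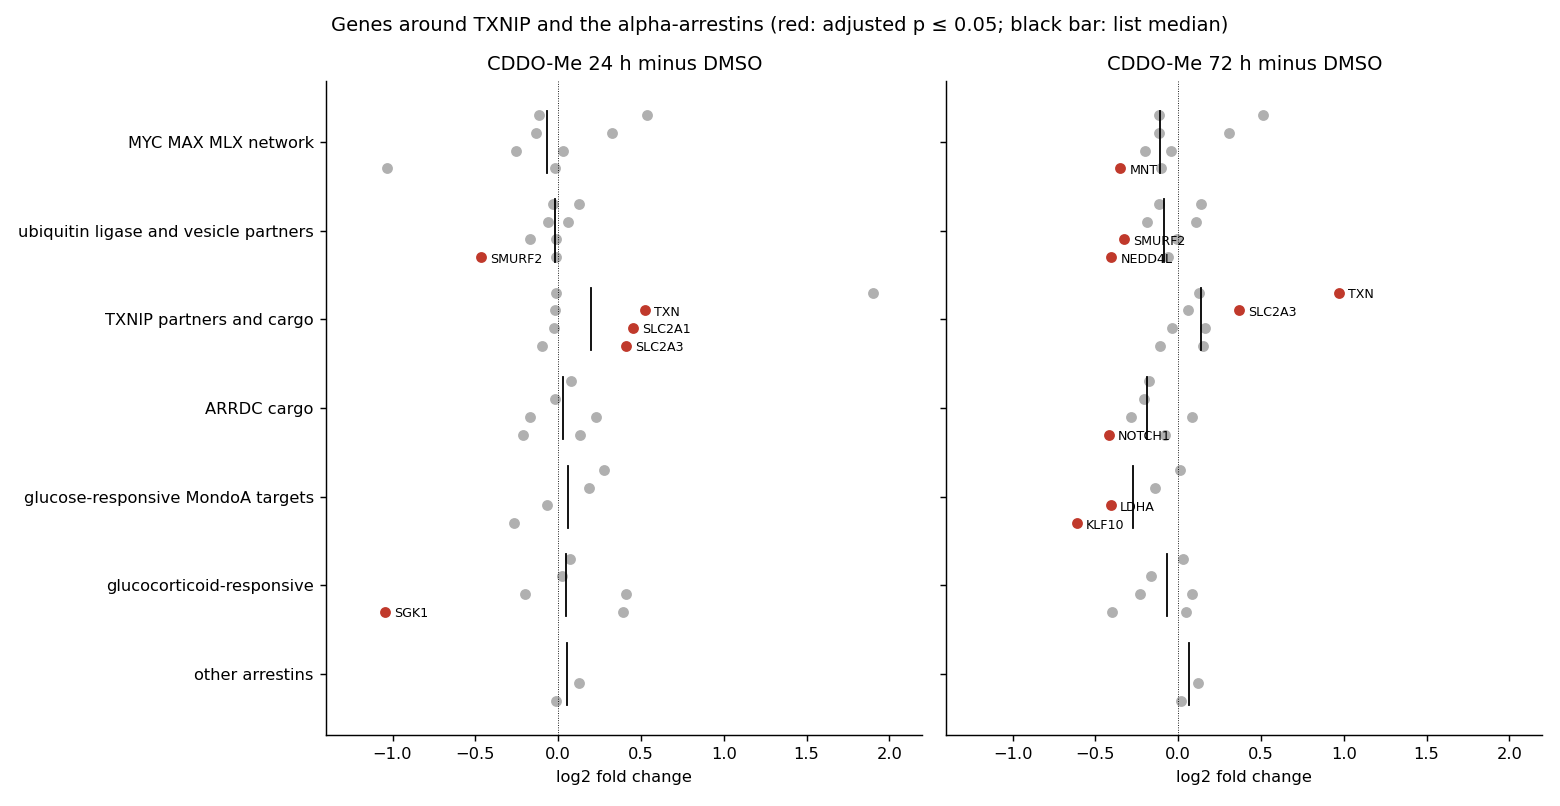
Log2 fold change (x axes) of each tested gene in the 7 lists, for CDDO-Me 24 h and 72 h, both against the same DMSO libraries; black bars are list medians and red points have an adjusted p of at most 0.05. TXN, SLC2A1 and SLC2A3 are the red points above 0, and SGK1 at -1.04 lies farthest below.

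Transcripts known for retention in the nucleus moved with the libraries as well. The median of 7 such genes (among them MALAT1, NEAT1 and OGT), as log2 CPM minus the DMSO mean, was 0.41, -0.22 and -0.17 in DMSO, 0.41, 0.63 and -0.61 at 24 h, and -0.47, -0.55 and -0.54 at 72 h. OGT, the most abundant of them, had group means of 110.6, 130.3 and 98.1 CPM. TXNIP in 24 h library 3, where this median was lowest, was 108.9 CPM, within the 106.0 to 121.3 CPM of that group. In DMSO library 1, where the median was high, TXNIP was at its lowest for DMSO, 56.8 CPM. In DMSO libraries 2 and 3 it was 88.4 and 109.3 CPM. In 24 h libraries 1 and 2, with medians of 0.41 and 0.63, it was 106.0 and 121.3 CPM. In the 72 h libraries, with the medians given above, it was 50.9, 52.3 and 45.0 CPM. ARRDC4 was 3.00, 3.85 and 4.79 CPM in DMSO, 5.71, 5.17 and 7.53 CPM at 24 h, and 2.23, 2.55 and 3.26 CPM at 72 h. The part of these nuclear transcripts in the values of TXNIP and ARRDC4 was not tested.

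The genes most like TXNIP across the 9 libraries, by Pearson correlation of log2 CPM among 9770 other genes with an average log2 CPM of at least 3, were TMEM154 (r = 0.97), XKR8 (0.94), THSD4 (0.93), CHAF1A (0.92) and MARCHF8 (0.91). The 9 points share 3 groups and their library effects. TXNIP was chosen for its fall between the CDDO-Me times, so these correlations and ranks are a description and no test. TMEM154 stood at 14.7, 17.8 and 18.8 CPM in DMSO, 18.2, 22.3 and 20.2 CPM at 24 h, and 12.5, 11.9 and 12.2 CPM at 72 h. It has the same order of groups as TXNIP, which follows from its selection as the gene most like TXNIP. Among all 14964 other tested genes, ARRDC4 ranked 27 (r = 0.87), MLXIP 866 (0.59), ARRDC2 3792 (0.28), ARRDC3 6656 (0.06), ARRDC1 7568 (-0.01) and MLX 10240 (-0.20).

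The spaced pair of hexamers shown for TXNIP was in windows of 23 genes, of which 14 besides TXNIP were tested. This list was taken from sequence after the TXNIP values were known. edgeR's quasi-likelihood test called 0 of the 14 in each comparison, beside 2.15%, 6.02% and 1.02% of all genes. At an unadjusted p under 0.05 the counts were 2, 3 and 2, beside 12.8%, 18.6% and 13.2% of all genes. DESeq2 called 0 in each, beside 3.65%, 8.05% and 2.63% of all genes. With limma-voom 0 were called in each, beside 2.01%, 5.27% and 0.768%. With 24 h library 3 and DMSO library 1 both left out the counts were 6, 3 and 3 of these genes, beside 22.8%, 17.9% and 22.8% of all genes. Their medians were -0.04, 0.01 and 0.02 on the log2 scale for 24 h against DMSO, 72 h against DMSO and 72 h against 24 h, beside 0.01, 0.00 and -0.01 over all genes.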

How the data were processed

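Values were deposited by the authors as raw read counts (whole numbers, 1 total per Ensembl gene and library). Tools named in the submitters' processing notes are STAR, SAMtools, Subread and featureCounts, on hg38 and GRCh38. The TruSeq RNA v2 kit keeps no strand, per the labels' protocols. Which annotation release was used, and how strand and multiple matches were set, is not given in the sources used here. A few labels read CDDO, and the treatment label (CDDO-Me) was followed. Whether replicates came from separate cultures is not said in the labels; a p-value here then covers the variation among these libraries alone, possibly technical.

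Counts were tested with edgeR 4.0.16 (quasi-likelihood, trimmed mean of M values, filterByExpr) in R 4.3.3, with 9 libraries in 1 fit and 6 residual degrees of freedom. Adjustment (Benjamini-Hochberg) ran over 14965 genes, and a gene was called at an adjusted p of at most 0.05. The common biological coefficient of variation came to 11.5%. Log2 CPM used a prior count of 2. A count of 0 allows up to 3 counts, or 0.11 to 0.175 CPM (counting error only). DESeq2 1.42.0 and limma 3.58.1 were alternatives. The fit was run on simulated data in which no library stood apart, with a limit set only on the median fold change recovered. That run does not measure false calls in these libraries. Replicate columns all differed by more than sampling noise.

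Genes and lists were chosen with earlier results of these data known. Named genes are the 7, per list and comparison up to 4 past the threshold with the smallest adjusted p, or the most abundant where none passed, and the 5 most like TXNIP. Promoter windows and start sites are from RefSeq (GRCh38.p14), and all 7 genes matched. Gene positions (GRCh38) were read from the count table.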

Additional observations from a re-analysis of the deposited data

Results flagged for a closer look

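Levels differed between 72 h and 24 h of CDDO-Me, by edgeR's quasi-likelihood test, for 6 of the genes named, beside 1.02% of all genes tested. List genes were named partly because they passed, so this count is a description. With no vehicle group at 24 h, a change in the effect of CDDO-Me and the difference in time cannot be told apart. On the log2 scale the level at 72 h minus that at 24 h was -1.20 for ARRDC4, -0.39 for NEDD4L, -0.39 for SLC2A1, -0.55 for PER1, 0.65 for SGK1 and 0.69 for the smooth muscle marker CNN1. The CNN1 call held without 24 h library 3 and without DMSO library 1, the only single libraries left out for it. No 72 h library was left out for CNN1, so it cannot be compared with the others in this. The 5 other calls also held without 24 h library 3, but were lost when certain other single libraries, those of 72 h among them, were left out, as given beside each gene. For TXNIP the same difference was -1.18, with every 24 h library above every 72 h library, and it was not tested because TXNIP was chosen for it.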

How the results depend on the processing

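The TXNIP differences kept their sign in all 20 alternatives. Leaving out 1 library gave 0.18 to 0.63 at 24 h, -1.0 to -0.55 at 72 h and -1.22 to -1.11 between the times. ARRDC4 passed between the times in 14 of 20 (-1.37 to -1.02, adjusted p 0.000112 to 0.185), and MLXIP at 72 h in 8 of 20. Over the 3 comparisons (24 h, 72 h, 72 h against 24 h) the 321, 901 and 152 genes called became 662 and 507 with no filter (first and last), 546 and 394 with DESeq2 (first and last), 1640, 2604 and 2938 with sample weights, and 100 and 1776 with only the groups compared (first and second). They became 3464, 2724 and 3471 with both libraries that stood apart left out, a setting added after the data were seen. Single libraries left out gave 134 (DMSO 2) to 1657 (24 h 3), 401 (72 h 1) to 1972 (24 h 3) and 32 (72 h 3) to 1843 (24 h 3). Of the 6 tested members, those called at 72 h against DMSO became 2 with no filter, where 1249 of 29683 genes were called. They became 1 with DESeq2 (8.05% of all genes), 2 with sample weights (2604 of 14965 genes) and 1 with only the groups compared (1776 of 14534). Single libraries left out gave 0 to 2, beside 401 to 1972 genes. Between the times the 1 became 2 with sample weights (2938 of 14965 genes) and 0 to 2 with single libraries left out (32 to 1843 genes). At 24 h single libraries left out gave 0 to 0 members, beside 134 to 1657 genes. With both apart libraries out the members called were 1, 2 and 3, beside 22.8%, 17.9% and 22.8% of all genes. The cause of these shifts was not tested. Signs that turned, all of values not called, were ARRDC2 at 72 h (0.010 with sample weights, 0.043 with both out, -0.17 to 0.045 with single libraries out), MLX between the times (-0.0030 with sample weights, -0.016 with both out, -0.014 to 0.13 with single libraries out), MLXIP at 24 h (-0.13 to 0.048 with single libraries out; 0.010 without 24 h library 3) and ARRDC1 at 72 h (-0.048 to 0.16 with single libraries out). Deviations from the group means correlated weakly between same-numbered libraries (r of -0.0277 to 0.0822) and between differently numbered ones (-0.109 to 0.0403). For 24 h against DMSO the same-numbered values (0.0786, 0.0208 and 0.0822) lay above all others (0.0187 at most). The numbers were not taken to pair samples, though pairing is not excluded. With the replicate number as a block, 358, 963 and 219 genes and 0, 1 and 1 members were called. ARRDC4, at 46 to 206 counts, is the member most limited by depth.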

Other observations

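DDIT4, a stress-response inhibitor of mTORC1 whose protein binds TXNIP, was looked at after its values were seen. It stood at 15.5, 15.1 and 16.1 CPM in DMSO, at 79.6, 73.0 and 22.9 CPM at 24 h and at 18.4, 17.2 and 15.2 CPM at 72 h. All 24 h libraries lay above the rest, library 3 far below the other pair. The log2 fold change at 24 h was 1.90 ± 0.43 (edgeR's quasi-likelihood test, adjusted p = 0.0915), and without 24 h library 3 it was 2.29 (adjusted p = 4.53e-11).

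MYC, a transcription factor that binds E-boxes together with MAX, stood at 127.2 ± 44.0 CPM in DMSO, 62.3 ± 11.4 CPM at 24 h and 110.7 ± 4.12 CPM at 72 h (SD, n = 3 libraries each). The log2 fold change at 24 h was -1.03 ± 0.26 (edgeR's quasi-likelihood test, adjusted p = 0.113), with DMSO library 1 at 76.4 CPM near the 24 h values. Without DMSO library 1 it was -1.297 (edgeR's quasi-likelihood test, adjusted p = 0.000102), and without 24 h library 3 it was -0.89 (adjusted p = 0.144). MYC, too, was chosen after its values were seen.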
